A study of Mus musculus with 8 samples.

Results

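The genes described here encode the machinery that shortens poly(A) tails, removes caps and degrades mRNA, together with proteins that bind AU-rich elements or stem-loops in mRNAs. The ZFP36 family itself was not among them. The 31 genes were taken by symbol from the deposited count table of 25239 genes, and all 31 passed the filter on low counts that left 14861 genes for testing. RNA came from livers of adult male mice. The 4 control libraries were from mice homozygous for a loxP-flanked Zfp36l1 allele (fl/fl, genotype field WT), and the 4 knockout libraries were from fl/fl mice that also carried Alb-Cre. That transgene puts Cre recombinase under the albumin promoter. The promoter works in hepatocytes, and which other cell types of the liver keep the gene was not measured. Both groups share the fl/fl allele, and the labels give Alb-Cre for the knockout group alone, so Cre itself and loss of Zfp36l1 cannot be told apart.

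ZFP36L1 binds AU-rich elements in 3′ untranslated regions (UTRs) and recruits the CCR4-NOT complex, which removes the poly(A) tail. Deadenylated mRNAs are then decapped by DCP2 and degraded from the 5′ end by XRN1, or from the 3′ end by the exosome. Other proteins compete for or share the same elements: ELAVL1 is known mainly as a stabiliser, while HNRNPD and KHSRP promote decay of many bound mRNAs.

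Zfp36l1 transcripts were lower in every library labelled knockout. Levels were 263, 237, 324 and 212 CPM (counts divided by library size, after scaling between libraries with TMM, a method that corrects for the share taken by abundant genes) in control libraries 1 to 4, and 76.9, 57.9, 67.2 and 58.3 CPM in knockout libraries 1 to 4. The log2 fold change was −1.99 (SE 0.14, edgeR adjusted p = 0.000309). Of its paralogues, Zfp36 had 61.5 ± 14.6 and 71.8 ± 19.5 CPM (mean ± SD, n = 4, control then knockout) and Zfp36l2 had 46.4 ± 9.07 and 58.6 ± 8.83 CPM, and neither passed the test (edgeR adjusted p = 0.62 and 0.231).

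Libraries held 104842873 to 140582588 counts. The smallest level set above a count of 0 was 3 counts, which correspond to 0.0213 to 0.0286 CPM before TMM scaling. Alb averaged 57566 CPM in the controls, and the summed level of the 8 hepatocyte markers lay between 79783 and 88637 CPM in the controls and between 94110 and 104033 CPM in the knockouts. Alb made up most of that sum. The list did not move together: Alb, Ttr and Apob lay above 0 (log2 differences 0.32, 0.41 and 0.32) and the other five, Apoa1, Cps1, Serpina1a, Cyp2e1 and Hnf4a, below 0 (−0.25 to −0.05), with a median of −0.09. Of the 8, edgeR called 0 (3 at an unadjusted p under 0.05), while DESeq2 called Alb, Ttr and Apob higher and limma Alb and Apob. Macrophage (8 of 8 tested), endothelial (7 of 7) and stellate cell markers (7 of 7) had summed levels that overlapped between the groups, and edgeR called 0 of them. DESeq2 and limma called 1, the endothelial gene Lyve1, higher. All 8 macrophage and all 7 endothelial markers lay above 0 (median log2 differences 0.18 and 0.17). So did 3 of the 7 stellate cell markers and 7193 of all 14861 tested genes. Of 6 bile duct markers Sox9 was lower by all 3 tools, while Krt19, Krt7 and Cftr lay above 0 (0.10, 0.20 and 0.41). Epcam and Spp1 lay below 0 (−0.25 and −0.24), and only Sox9 was called by any tool. The list summed to 42.2 to 57.0 CPM in the controls and to 30.4 to 44.9 CPM in the knockouts, which overlapped. Spp1 made up most of that sum (means of 34.8 CPM in the controls and 29.6 CPM in the knockouts). The neutrophil list (3 of 6 tested) summed to 1.41 to 6.40 CPM in the controls, and to 47.8, 1.75, 1.32 and 22.0 CPM in knockout libraries 1 to 4. The 4 haemoglobin genes of the red blood cell list were at 0 in all 8 libraries. In whole liver RNA, fewer cells of a type and less RNA per cell cannot be told apart. The labels number the libraries without naming separate mice, so the p-values measure the spread between libraries, which may be technical.

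Most of the decay machinery differed little between the groups. At an adjusted p under 0.05 (edgeR quasi-likelihood test, adjusted over all 14861 genes), 2 members rose in the knockout, Auh and Rc3h2, and 1 fell, Parn. That is 9.68% of the 31 members, against 5.39% of all tested genes. By direction, 6.45% of members were higher, against 3.51% of all genes, and 3.23% were lower, against 1.88%. The largest of the 3 changes was a log2 value of 0.40. An unadjusted p under 0.05 was found for 7 members (22.6%) and for 21.5% of all genes. The median size of the log2 difference, without its sign, was 0.15 for the members and 0.17 for all genes. The 95% interval of the difference lay within a 1.5-fold change either way for 28 of the 31 members. The other 3 were Auh, Dcp1b and Zc3h12a. All these values come from a fit without the replicate number, although libraries of the same number deviated together. With a block on that number, 0 members were called higher and 2 lower (Parn and Pabpc1). Of all 14861 genes, 653 were then called higher and 375 lower.

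The members' log2 differences lay below 0 for 26 of 31 (83.9%), against 51.6% of all tested genes, with a median of −0.13 against −0.01. Without control 2 the members' median was −0.08 and 22 of 31 lay below 0, against 49.8% of all genes, and the other seven fits that leave out 1 library put 24 to 26 below 0. Knockout libraries were all below all controls for 6 members (19.4%, against 7.93% of all genes), namely Cnot2, Cnot10, Pan2, Parn, Pabpc1 and Edc4. They were all above for 2 members, Auh and Rc3h2 (6.45%, against 7.17% of all genes). These shares were not matched for abundance. TMM factors lay between 1.02 and 1.06 for the controls and between 0.947 and 0.984 for the knockouts. With library totals alone, members and all genes shifted alike: the median of all genes moved by −0.113. Medians were then −0.12 for all genes and −0.24 for the members, and 27 members and 67.6% of all genes lay below 0. The calls among members then became 0 higher, against 2.64% of all genes, and 4 lower (Parn, Pabpc1, Cnot2 and Edc4), against 9% of all genes.

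**Figure D1:**
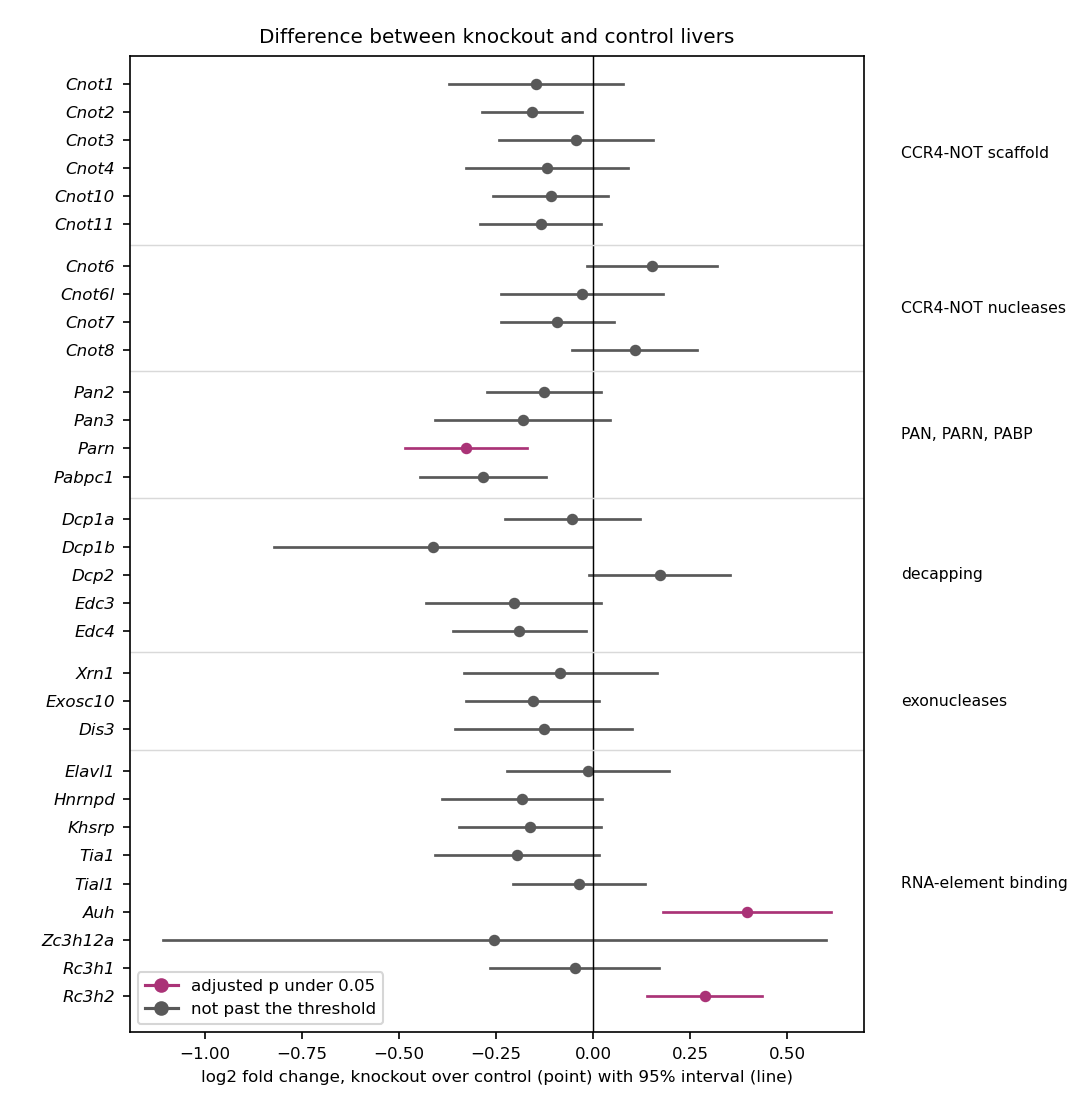
Log2 fold change of knockout over control (x axis) for each member (y axis, by role), with the 95% interval as a line, from 4 libraries per group. Auh and Rc3h2 lie above 0 and Parn below with adjusted p under 0.05, and 26 of 31 points lie below 0.

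Both members that rose have the 7-base core that ZFP36 proteins bind, UAUUUAU, in their 3′ UTR, and Parn has none, so the sites of Auh and Rc3h2 are shown with those of Rc3h1, the close paralogue of Rc3h2, and with the first of a cluster of 8 in Elavl1, the most in any member. Sequences are the sense strand of GENCODE M21 transcripts on GRCm38 (mm10), with the core in capitals.
Auh, minus strand, chr13:52835303-52835332: gcgccaugucaUAUUUAUucagauuuauaa
Rc3h2 first site, minus strand, chr2:37374755-37374784: uccagcugcuuUAUUUAUcuuuuucauugg
Rc3h2 next site, minus strand, chr2:37374497-37374526: ugcuuuguuaaUAUUUAUacacaggcuacu
Rc3h2 last site, minus strand, chr2:37373286-37373315: caaagacauuuUAUUUAUuuuacucuguaa
Rc3h1 first site, plus strand, chr1:160970043-160970072: acuuuacucauUAUUUAUugagaugaggag
Rc3h1 last site, plus strand, chr1:160971397-160971426: guuuucccaugUAUUUAUucuuuugccuaa
Elavl1 first of 8 sites, minus strand, chr8:4285787-4285816: gucaugaaaauUAUUUAUuuauuuauuuau

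The Auh core starts 153 bases after the stop codon in a 3′ UTR of 355 bases, in exon 10, the last. With the tested genes sorted into 10 classes of 3′ UTR length, 9.99% of those in the same class hold the core. Those of Rc3h2 start 460, 718 and 1929 bases after the stop codon in a 3′ UTR of 5160 bases, all in exon 20, the last, and 64.4% of genes in that length class hold at least 1. The core was present in 15 of the 31 members (48.4%) and in 27.2% of the 13707 tested genes with an annotated 3′ UTR, but the members' UTRs were also longer, with a median of 1447 bases against 950. The median log2 difference was −0.04 for the 15 members with the core and −0.15 for the 16 without, and 0.07 and −0.03 for all tested genes with and without it. The members' medians include Auh and Rc3h2, and none of these medians was matched for UTR length. Elavl1 and Rc3h1 also hold the core and were not called (log2 differences −0.01 and −0.05). A match is a stretch of letters, and binding was not measured.

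Per length, the members spanned a wide range of abundance. With counts divided by the deposited gene length and scaled to the same sum in each library (TPM), control levels ran from 1.93 ± 0.357 TPM for Dcp1b to 233 ± 14.0 TPM for Pabpc1 (n = 4). Khsrp had 47.8 ± 4.83 and Cnot1 44.4 ± 8.43 TPM, and these neighbours overlapped between libraries. Auh followed with 36.8 ± 2.83 TPM, overlapping Cnot1, and Cnot8 with 32.1 ± 2.10 TPM, every library of it below those of Auh. At the low end, Tia1 (5.74 ± 0.653), Cnot4 (4.92 ± 0.517) and Zc3h12a (4.73 ± 1.91 TPM) also overlapped each other. The median control coefficient of variation was 8.18% for the members and 13.5% for all tested genes, which were not matched for abundance. Among the members Zc3h12a (44.0%) and Dcp1b (19.8%) lay above the median of all genes. TPM carries no correction for abundant genes, so groups were compared in CPM.

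**Figure D2:**
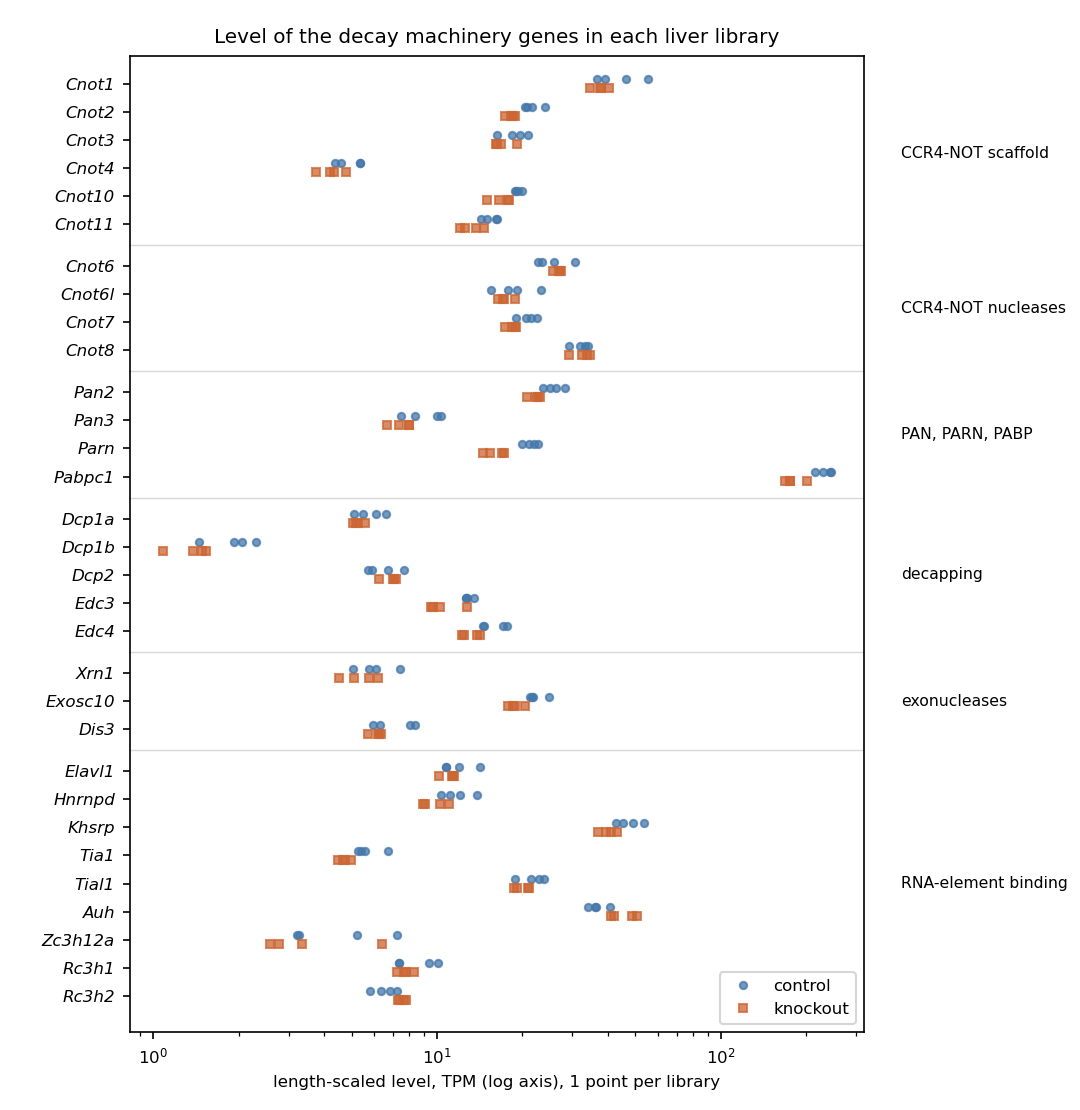
TPM (log x axis) of each member in each of the 4 control (circles) and 4 knockout (squares) libraries. Pabpc1 stands above all other members, with control means of 233 TPM against 47.8 TPM for the next, and Dcp1b has the lowest control mean, 1.93 TPM.

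CNOT1 is the scaffold of CCR4-NOT and the surface on which ZFP36 proteins dock. Cnot1 had 147, 169, 192 and 140 CPM in control libraries 1 to 4 and 150, 137, 153 and 145 CPM in knockout libraries 1 to 4. The groups overlapped, and control libraries 2 and 3 were the highest of the 8 with knockout 3 next (log2 difference −0.15, SE 0.10, edgeR adjusted p = 0.43). CNOT2 and CNOT3 form the NOT module near the end of the scaffold. Cnot2 had 32.6, 33.2, 35.1 and 33.4 CPM in control and 31.1, 29.2, 30.1 and 29.9 CPM in knockout libraries, with no overlap but a small difference (−0.16, SE 0.06, edgeR adjusted p = 0.145). Cnot3 had 22.5 ± 1.87 and 21.8 ± 2.05 CPM. Cnot10 and Cnot11, whose products form a module at the other end of CNOT1, had log2 differences of −0.11 and −0.13. For Cnot4, a ubiquitin ligase gene, the difference was −0.12. All 6 of these genes lay below 0 (range −0.16 to −0.04), except that Cnot3 reached 0.00983 without control 2. By edgeR 0 of the 6 passed, as by DESeq2 and limma, and 1 had an unadjusted p under 0.05. Cnot9, the remaining core subunit and not a member, had 22.2 ± 0.986 and 21.9 ± 0.574 CPM.

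The nuclease subunits come in 2 pairs of paralogues, and a complex holds 1 gene product of each pair. Of the 4 genes, edgeR, DESeq2 and limma called 0, with 0 at an unadjusted p under 0.05 by edgeR. CNOT6 and CNOT6L are nucleases of the exonuclease-endonuclease-phosphatase type, and CNOT7 and CNOT8 of the DEDD type. Cnot6 had 57.2, 61.0, 68.9 and 56.2 CPM in control and 69.3, 66.1, 66.7 and 68.2 CPM in knockout libraries. Only control library 3 reached the knockout range (0.15, SE 0.07, edgeR adjusted p = 0.276). Cnot6l had 68.4 ± 8.66 and 67.0 ± 3.53 CPM. Cnot7 had 27.2 ± 1.46 and 25.5 ± 0.938 CPM, and Cnot8 had 42.3 ± 2.75 and 45.5 ± 2.78 CPM (log2 differences −0.09 and 0.11, neither past the test). That of Cnot8 became −0.00695 with library totals alone. The ratio of 2 genes within a library does not depend on scaling. The log2 ratio of Cnot6 to Cnot6l, per length, lay between 0.40 and 0.55 in the controls and between 0.54 and 0.66 in the knockouts. For Cnot7 to Cnot8 it ranged from −0.69 to −0.58 among controls and from −0.95 to −0.63 among knockouts. Both pairs overlapped between the groups, and these ratios are given without a test.

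PARN and the PAN2-PAN3 complex are deadenylases outside CCR4-NOT. PARN also trims the ends of small non-coding RNAs and of telomerase RNA. The gene (Parn, ENSMUSG00000022685.9) lies on the minus strand of chromosome 16 from 13537960 to 13668170 (mm10). Parn levels were 24.4, 24.9, 25.7 and 27.2 CPM in control libraries 1 to 4. Knockout libraries 1 to 4 had 18.8, 19.9, 21.3 and 21.4 CPM. Every knockout library was below every control, and the knockout mean was 79.6% of the control mean (20.4 ± 1.22 against 25.6 ± 1.24 CPM, n = 4). The log2 fold change was −0.33 (SE 0.07, edgeR adjusted p = 0.0288), with a 95% interval from 0.714 to 0.888 of the control level. The call held in all 7 alternative fits on all 8 libraries, the block on replicate number included (edgeR adjusted p = 0.0302). It was kept without control 3 or knockout 4 and lost without any of the other six libraries, where edgeR adjusted p-values were 0.0591 to 0.0978. Over all 8 such fits the log2 fold change stayed between −0.35 and −0.29.

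Pan2, the catalytic subunit gene, had 47.3, 51.3, 45.6 and 45.2 CPM in control and 41.2, 45.2, 42.3 and 44.7 CPM in knockout libraries. The lowest control and the highest knockout library were nearly level (log2 difference −0.13, edgeR adjusted p = 0.296). Pan3, which encodes the subunit that brings PAN2 to mRNA, had 19.2 ± 2.27 and 16.9 ± 1.41 CPM with overlapping groups (−0.18, edgeR adjusted p = 0.331). Per length, Pan2 exceeded Pan3 by a log2 ratio of 1.40 to 1.67 among controls and of 1.52 to 1.65 among knockouts.

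PABPC1, the main cytoplasmic poly(A) binding protein, coats the tail that these enzymes remove. Its gene, Pabpc1 (ENSMUSG00000022283.15), lies on the minus strand of chromosome 15 from 36595661 to 36609668. Levels were 256, 281, 267 and 278 CPM in control libraries 1 to 4. Knockout libraries had 212, 220, 211 and 247 CPM. The groups did not overlap, and knockout 4 lay closest to the controls. The log2 difference was −0.28 (SE 0.07) with edgeR adjusted p = 0.0529, so that Pabpc1 did not pass. It did pass with the block on replicate number (edgeR adjusted p = 0.046), without knockout 4 (0.0317), with library totals alone (0.0155), by DESeq2 (0.0104) and by limma (0.021). Its 3′ UTR of 439 bases holds no UAUUUAU.

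**Figure D3:**
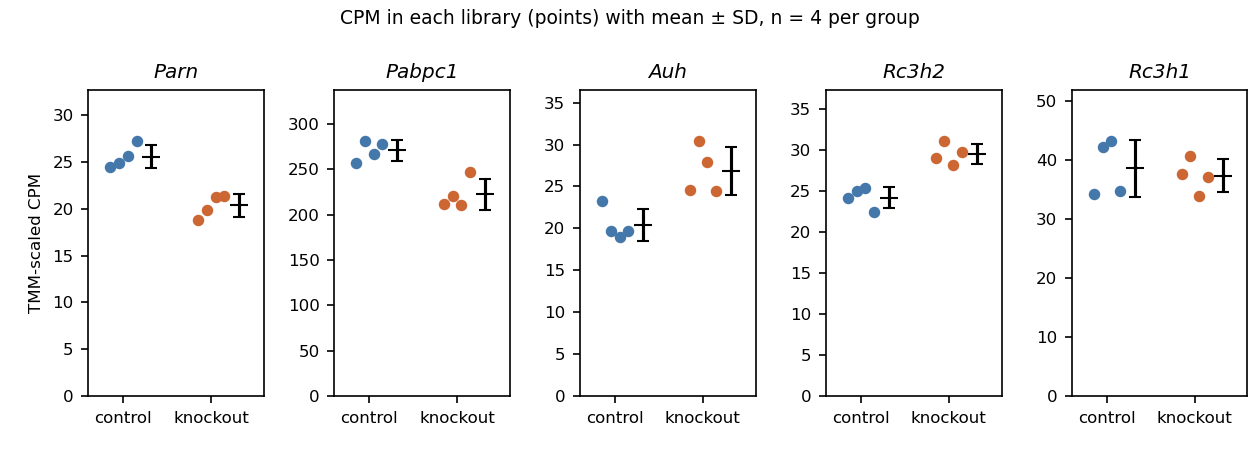
TMM-scaled CPM of 5 members in each library (points, y axis from 0), with mean ± SD of 4 libraries. Parn and Pabpc1 are lower and Auh and Rc3h2 higher in every knockout library, while Rc3h1 overlaps.

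Decapping is carried out by DCP2 with its activator DCP1, and EDC3 and EDC4 hold the decapping complex together. Dcp2 had 21.5, 23.6, 25.8 and 21.1 CPM in control and 26.9, 24.1, 25.9 and 26.8 CPM in knockout libraries. Only control 3 and knockout 2 made the groups overlap (0.17, SE 0.08, edgeR adjusted p = 0.259). Edc4 had 29.6, 34.5, 31.8 and 29.9 CPM in control and 26.1, 29.5, 28.8 and 25.8 CPM in knockout libraries, which did not overlap by a narrow margin (−0.19, SE 0.08, edgeR adjusted p = 0.185). Edc3 had 17.9, 18.3, 16.5 and 18.2 CPM in control and 14.4, 15.2, 13.5 and 18.4 CPM in knockout libraries, so that knockout 4 lay above all controls and the other knockouts below them all (−0.20, edgeR adjusted p = 0.276). Dcp1a had 13.4 ± 0.999 and 12.9 ± 0.462 CPM. Dcp1b, its less abundant paralogue with 183 to 368 counts per library, had 2.64 ± 0.524 and 1.98 ± 0.291 CPM. Its log2 difference of −0.41 was the largest in size of all members, with edgeR adjusted p = 0.23 and a 95% interval from 0.566 to 0.998 of the control level. Of the 5 decapping genes 0 passed by edgeR, DESeq2 or limma, and 2 had an unadjusted p under 0.05 by edgeR. Edc4 passed with library totals alone (edgeR adjusted p = 0.0451). Dcp1a exceeded Dcp1b by a log2 ratio of 1.25 to 2.07 among controls and of 1.72 to 2.26 among knockouts.

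XRN1 degrades decapped mRNA from the 5′ end, and DIS3 and EXOSC10 are the catalytic subunits of the nuclear exosome. Xrn1 had 25.1, 25.6, 29.7 and 22.3 CPM in control and 23.3, 20.6, 25.2 and 27.7 CPM in knockout libraries, and the groups overlapped (−0.08, SE 0.11, edgeR adjusted p = 0.703). Exosc10 had 29.4 ± 2.40 and 26.4 ± 1.34 CPM (−0.16, edgeR adjusted p = 0.273). Dis3 had 11.1 ± 1.45 and 10.2 ± 0.434 CPM (−0.13, edgeR adjusted p = 0.508). Of the 3 exonuclease genes 0 passed by edgeR, DESeq2 or limma, and 0 had an unadjusted p under 0.05 by edgeR. The 95% intervals reached from 0.781 to 1.12 of the control level over all 3.

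Auh had the largest increase among the members. AUH was found as a protein that binds AU-rich RNA, and it is also a mitochondrial hydratase that acts in leucine breakdown. Auh (ENSMUSG00000021460.17) lies on the minus strand of chromosome 13 from 52835119 to 52929681. Its levels were 23.2, 19.7, 19.0 and 19.7 CPM in control libraries 1 to 4. Knockout libraries 1 to 4 had 24.6, 30.4, 27.9 and 24.5 CPM. The groups did not overlap, although control 1 came close to knockouts 1 and 4. The mean was 132% of control (26.8 ± 2.87 against 20.4 ± 1.91 CPM, n = 4), a log2 fold change of 0.40 (SE 0.10, edgeR adjusted p = 0.0454, 95% interval 1.13 to 1.53 of control).

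The Auh call was not firm. The block on replicate number gave edgeR adjusted p = 0.0551, library totals alone 0.0843 (log2 fold change 0.28) and limma with quality weights 0.0503. It held without control 1 (edgeR adjusted p = 0.0457) and was lost without any of the other seven libraries, with edgeR adjusted p-values of 0.0504 to 0.124. The direction was the same in all 15 alternatives.

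RC3H1 and RC3H2 (roquin-1 and roquin-2) bind stem-loops in 3′ UTRs and recruit CCR4-NOT. Rc3h2 (ENSMUSG00000075376.10) lies on the minus strand of chromosome 2 from 37370069 to 37422903. Its levels were 24.1, 24.97, 25.3 and 22.4 CPM in control libraries 1 to 4. Knockout libraries had 29.0, 31.1, 28.2 and 29.8 CPM. All 4 knockout libraries were above all controls, with little spread in either group (29.5 ± 1.23 against 24.2 ± 1.31 CPM, n = 4). The log2 fold change was 0.29 (SE 0.07, edgeR adjusted p = 0.0383, 95% interval 1.10 to 1.35 of control). The block on replicate number gave edgeR adjusted p = 0.0548, library totals alone 0.14 and no filter on low counts 0.0503. It held without control 3 (edgeR adjusted p = 0.0324) and was lost without any of the other seven libraries (edgeR adjusted p = 0.0622 to 0.0992). The gene contains Snord90 on the same strand.

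The paralogue Rc3h1 had 34.1, 42.1, 43.2 and 34.7 CPM in control and 37.5, 40.7, 33.9 and 37.0 CPM in knockout libraries. These overlapped, with a log2 difference of −0.05 (SE 0.10, edgeR adjusted p = 0.817). The log2 ratio of Rc3h1 to Rc3h2 per length, which no scaling can move, was 0.20, 0.46, 0.47 and 0.34 in control libraries 1 to 4. In knockout libraries 1 to 4 it was 0.08, 0.09, −0.03 and 0.02. All knockout libraries were below all controls, and the median ratio went from 1.32 to 1.03. Of the 6 pairs compared in this way, only Rc3h1 and Rc3h2 had groups that did not overlap. Rc3h2 by itself was already without overlap, so the ratio is not a separate result. Among all tested genes taken singly, knockouts lay all above in 7.17% and all below in 7.93%. No such share was computed for ratios.

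**Figure D4:**
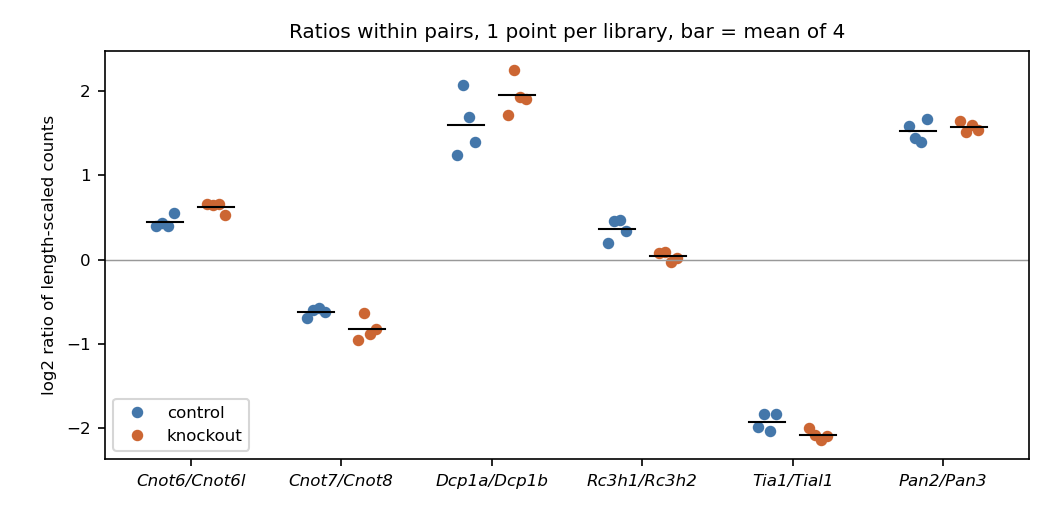
Log2 ratio of length-scaled counts (y axis) within 6 pairs of paralogues or partners (x axis), 1 point per library, with a bar at the mean of 4. The groups are apart for Rc3h1/Rc3h2 and overlap for the other 5 pairs.

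Zc3h12a encodes regnase-1, an endonuclease that cuts stem-loops in inflammatory mRNAs. It was the most variable member, with 6.19, 3.72, 3.51 and 8.69 CPM in control and 4.16, 3.24, 3.31 and 7.80 CPM in knockout libraries. The libraries numbered 4 were the highest and those numbered 1 came next in both groups, and the groups overlapped (−0.26, SE 0.38, edgeR adjusted p = 0.738, or 0.238 with the block). In both groups the neutrophil marker sum was also higher in libraries 1 and 4 than in 2 and 3. It was 4.93, 1.41, 1.98 and 6.40 CPM in controls and 47.8, 1.75, 1.32 and 22.0 CPM in knockouts. The summed T and B lymphocyte markers had the same order (5.52, 2.63, 3.57 and 6.50 CPM in controls). So did the macrophage markers, though controls 1 and 3 were nearly level (205 and 203 CPM). The part of these cells in Zc3h12a was not tested.

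The other AU-rich element binding genes did not pass. Elavl1 had 27.5, 34.9, 28.1 and 27.9 CPM in control and 30.4, 30.99, 29.4 and 26.5 CPM in knockout libraries, with control 2 far above the other controls (−0.01, SE 0.09, edgeR adjusted p = 0.942). Hnrnpd, which encodes AUF1, had 33.2 ± 3.43 and 29.2 ± 2.34 CPM (−0.18, edgeR adjusted p = 0.281). Khsrp had 78.7 ± 6.37 and 70.3 ± 5.46 CPM (−0.16, edgeR adjusted p = 0.282). TIA1 and TIAL1 bind U-rich and AU-rich elements, repress translation and gather in stress granules. Tia1 had 10.6 ± 1.13 and 9.25 ± 0.517 CPM (−0.20, edgeR adjusted p = 0.263) and Tial1 40.3 ± 3.06 and 39.3 ± 2.42 CPM (−0.04, edgeR adjusted p = 0.821). The log2 ratio of Tia1 to Tial1 per length ranged from −2.03 to −1.83 among controls and from −2.14 to −1.99 among knockouts. For these 5 genes the 95% intervals stayed within 0.753 to 1.14 of the control level.

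Among 109 further genes of mRNA decay and 3′ UTR binding, including the ZFP36 family, 106 were tested, 3 rose and 5 fell (7.55%, against 5.39% of all genes), with a median log2 difference of −0.06. The block on replicate number gave 2 and 6. One of the 5 was Zfp36l1 itself. Regulators of PABPC1 were among them. Paip2b, whose product blocks the binding of PABPC1 to poly(A), had 25.7, 32.4, 25.8 and 28.5 CPM in control and 19.3, 17.4, 17.9 and 19.1 CPM in knockout libraries. It fell by 0.61 on the log2 scale (SE 0.09, edgeR adjusted p = 0.00796), without overlap, and passed in all 15 alternatives. Paip1, whose product binds PABPC1 and promotes translation, rose from 45.9 ± 1.69 to 54.7 ± 2.72 CPM (0.25, edgeR adjusted p = 0.047, or 0.0546 with the block) and passed in 5 of 15 alternatives. Of the fits without 1 library it passed in that without control 3 alone (edgeR adjusted p = 0.0433), and the others gave 0.0622 to 0.122. Paip2 was not past the test.

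The decay cofactor genes Pnrc2 and Zcchc7 fell. Pnrc2, which encodes a decapping activator, fell from 52.4 ± 3.09 to 39.3 ± 5.32 CPM (−0.42, edgeR adjusted p = 0.042, passed in 8 of 15 alternatives). Without 1 library it passed only when knockout 1 was left out (edgeR adjusted p = 0.0448), and leaving out any other gave 0.0668 to 0.121. Zcchc7, which encodes a subunit of a nuclear exosome cofactor, fell from 13.3 ± 0.523 to 10.4 ± 0.388 CPM (−0.35, edgeR adjusted p = 0.0243, passed in 10). It was lost without control 1 or 2 or knockout 1, 3 or 4 (edgeR adjusted p = 0.0555 to 0.0843). Celf2, a CELF family RNA-binding protein gene, fell from 15.8 ± 0.933 to 11.6 ± 0.945 CPM (−0.45, edgeR adjusted p = 0.0183, passed in 11). It was lost without control 1 or 2 or knockout 1 or 3 (edgeR adjusted p = 0.0511 to 0.0615).

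Igf2bp2, an mRNA-stabilising protein gene, had 2.09, 3.37, 2.61 and 1.53 CPM in control and 4.35, 4.74, 5.41 and 4.76 CPM in knockout libraries. It rose without overlap by a log2 value of 1.00 (SE 0.22, edgeR adjusted p = 0.0308, passed in 10 of 15 alternatives). The call was lost without control 1 or without any 1 of the knockouts (edgeR adjusted p = 0.0593 to 0.0937). Samd4, a Smaug protein gene whose product recruits CCR4-NOT, rose from 5.28 ± 0.999 to 8.20 ± 1.18 CPM (0.63, edgeR adjusted p = 0.0476, passed in 7). Without 1 library it held only when control 4 was left out (edgeR adjusted p = 0.0394), with 0.0521 to 0.124 otherwise. By edgeR, 1 of the 25 tested genes of the exosome and other exonucleases changed (4%), and 1 of 18 decapping cofactors (5.56%). These shares are near the 5.39% of all tested genes. Of 19 tested deadenylation cofactors and other deadenylases, 2 changed (10.5%). An unadjusted p under 0.05 was found by edgeR for 8 of those 19 (42.1%, against 21.5% of all genes). Of 31 other tested regulators that bind 3′ UTRs, 3 changed (9.68%). Of 10 genes of nonsense-mediated decay 0 passed by edgeR, DESeq2 or limma. For that last list 0 genes had an unadjusted p under 0.05 by edgeR and 1 by limma.

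**Figure D5:**
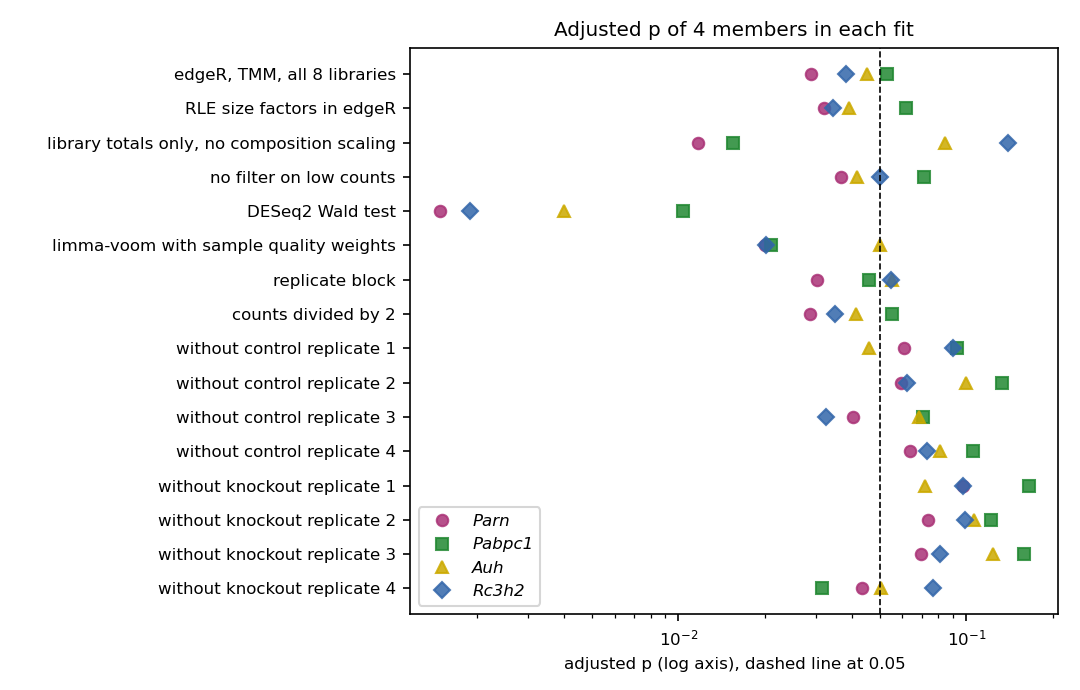
Adjusted p (log x axis, dashed line at 0.05) of Parn, Pabpc1, Auh and Rc3h2 in the fit on all 8 libraries and in 15 alternative fits (y axis). Parn stays left of the line in every fit on all 8 libraries, and 5 of the 8 fits that leave out 1 library put all 4 genes to its right.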

How the data were processed

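RNA-seq counts of 8 mouse liver libraries were used. The authors deposited raw counts per gene symbol with a gene length, on genome build mm10 per the submitters' processing notes. Aligner, counter, annotation and strand setting were not given in the sources used here. Gene lengths (other unit, bases) are as deposited. Each sample's description holds the name of its count column, which gave the mapping.

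Counts were filtered with filterByExpr (14861 genes kept, 10378 left out), scaled with TMM and tested with edgeR 4.0.16 (glmQLFit with robust estimation, glmQLFTest), with Benjamini-Hochberg adjustment over all tested genes. Standard errors came from the fold change and F, as |log2 fold change| over the root of F. Intervals use them with the moderated degrees of freedom and are approximate. The fit was tested on simulated data. Libraries of a group differed by more than counting noise (chi-square per gene 82.8 to 370.2). Each was counted as 1 replicate, though this value cannot show that the libraries came from separate mice. Alternatives were RLE factors, library totals, no filter, DESeq2 1.42.0, limma 3.58.1 with quality weights, a block on replicate number, counts divided by 2 and leaving out each library. Of counts from 1 to 20, 67.4% to 70.8% were even in each library, against 48.4% to 50.6% of large counts, and the cause was not tested.

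The members, lists and tests were chosen with earlier results of these data known. Named genes are all members, the changed genes of the further decay list, the ZFP36 family and Alb. Cnot9, Paip2, Angel1 and the marker genes other than Alb fall outside that rule and were chosen after their values were seen. The 31 members matched GENCODE M21 by symbol. The transcript with the longest coding part gave the 3′ UTR, without its stop codon, where at least 20 bases long. UAUUUAU was counted on the sense strand, overlaps included. Genes overlapping another gene of the table number 11 of 31, and 8 overlap on the opposite strand, among them Cnot1, Cnot7, Elavl1 and Dis3. Their reads, and those of close paralogues, cannot be told apart here.

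The replicate numbers pair the libraries by the data, not the labels: once each group's mean was taken off, the correlation over genes between libraries of 1 number was 0.165, 0.387, 0.306 and 0.402 for numbers 1 to 4, all above 0.1.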

Additional observations from a re-analysis of the deposited data

Results flagged for a closer look

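Elavl1 in control library 2 had 34.9 CPM, while the other controls had 27.5 to 28.1 CPM. The gap made up 0.914 of the range of the group. Cnot3 in knockout library 2 had 24.8 CPM, while the other knockout libraries had 20.6 to 20.9 CPM, a gap of 0.913 of the range. In both cases 1 library stood apart from the other three by more than Dixon's 95% critical value for 4 values. Chance flags about 1 in 20 groups, and 82 groups were examined. Control library 2 was also the highest of the controls for 15 of the 31 members, and knockout library 2 the highest of the knockouts for 14.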

How the results depend on the processing

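All genes past the threshold, 521 higher and 280 lower, became 1014 and 724 with DESeq2, 830 and 604 with limma and quality weights, and 392 and 1338 with library totals alone. Leaving out 1 library gave 169 to 583 higher and 42 to 384 lower genes, lowest without knockout 3 and highest without control 3. The replicate block gave 653 and 375. Members past it, 2 higher and 1 lower, became 0 and 4 with library totals, 2 and 2 with DESeq2, 1 and 2 with limma, 0 and 2 with the replicate block, 1 and 1 without the filter, and 0 to 1 and 0 to 2 without 1 library. Without 1 library 0 higher members were called in 6 of 8 fits. The further decay genes, 3 and 5, became 1 and 19 with library totals, 4 and 10 with DESeq2, 3 and 8 with limma, and 0 to 2 and 2 to 5 without 1 library. The log2 fold change of Zfp36l1 passed in all 15 alternatives.

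Signs turned only for members that never passed. Cnot8 went to −0.00695 with library totals, and Cnot6l to 0.0114 and Elavl1 to 0.0247 with limma. Leaving out 1 library gave log2 differences of −0.114 to 0.00983 for Cnot3, −0.0927 to 0.0560 for Cnot6l, −0.0467 to 0.0786 for Elavl1, −0.0799 to 0.0105 for Tial1, −0.0992 to 0.0140 for Rc3h1 and −0.628 to 0.0569 for Zc3h12a. The cause was not tested. The replicate block ended the calls of Auh, Rc3h2 and Paip1 and added Pabpc1 and Angel1, and changed no other call among the genes named.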

Other observations

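The spread among the control libraries was shared by many members. Control 2 was the highest of the 4 controls for 15 members and control 4 the lowest for 15. Across 14861 genes, the deviation of a library from the mean of all 8 correlated with gene length at Spearman rho −0.30 in control 1, 0.05 in control 2, 0.36 in control 3 and −0.22 in control 4, against −0.14 to 0.12 in the knockout libraries. Across the 31 members these values were −0.65, 0.05, 0.46 and −0.52 in control libraries 1 to 4. In knockout libraries 1 to 4 they were 0.298, 0.181, 0.253 and 0.0984. Cnot1, Cnot6l and Xrn1, with deposited lengths of 8914, 8814 and 10278 bases, had their highest control level in control 3. These are correlations across genes of the same libraries, given as descriptions. The knockout minus control difference correlated with length at 0.01 over all genes and 0.34 over the 31 members.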
